A study of Mus musculus with 12 samples.

Results

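The genes described here encode 9 proteins of the actin-based contractile apparatus: the troponin Tnnt2, the tropomyosins Tpm1 and Tpm2, the calponins Cnn1, Cnn2 and Cnn3, the calponin relative Tagln (transgelin, also called SM22), the smooth muscle actin Acta2 and the actin crosslinker Actn1. They are 9 of the 12393 genes measured. The genes were picked by name, with earlier results of these data known, and the p-values below do not allow for that choice. Each gene was read from the probe set with the highest mean level over all arrays, with its other probe sets kept as a check. Tnnt2 and Cnn3 were already known from earlier results of these data to be among the genes that differed most between cultures. Their differences between cultures are therefore given without a p-value. The counts over the 9 genes in those comparisons include whether these genes passed, as a description only, and are not read as a result about the group.

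In a contractile cell, myosin pulls on actin filaments, and tropomyosin lies along those filaments and controls access to them. Troponin makes that control sensitive to calcium in heart and skeletal muscle, whereas calponins and transgelin bind actin in smooth muscle and in many non-muscle cells, where alpha-actinin crosslinks filaments in stress fibres and at adhesions. In liver, Acta2 is the usual marker of activated hepatic stellate cells, and epithelial cells grown flat on plastic also build stress fibres. Many of these genes are regulated by serum response factor (SRF) and its actin-sensing cofactors of the MRTF family.

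Total RNA from bipotential mouse embryonic liver (BMEL) cells was hybridised to 12 Affymetrix mouse 430A arrays. BMEL cells are immortal hepatoblast-like lines from dpc14 embryonic liver, here of strain CBA/J x C57Bl/6J, and carry no stated genetic change. The lines 9A1 and 14B3 were isolated independently, so each stands for 1 isolate and a difference between them is a difference between 2 isolates. Each line was grown in 3 ways with 2 arrays each: under basal conditions, as aggregates for 5 days, or in Matrigel, a basement membrane gel, for 10 days. The exception is replicate 1 of 14B3 in Matrigel, which is labelled as 5 days. No day is given for basal culture. Levels below are log2 intensities of a probe set, and a difference is a difference of log2 intensities. Probe sets differ in how brightly they bind, so levels are compared between arrays and never between genes. In bulk RNA, fewer cells of a kind and less RNA per cell cannot be told apart.

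The hepatoblast identity in the labels was checked first. All 9 measured genes of a 10-gene hepatoblast and hepatocyte list, among them Alb and Ttr, exceeded the background guide described next on at least 1 array, some only in the cultures where they were high. In basal culture Hnf4a, Foxa2, Krt8 and Krt18 had means of 10.85 to 13.74, above the guide, whereas the means of Alb (8.08), Afp (9.25), Ttr (9.02), Apoa1 (9.06) and Dlk1 (7.31) lay within it. The linear intensity summed over all 9 measured genes of this list ran from 31670 to 35840 in basal culture, 56930 to 80200 in aggregates and 60960 to 69100 in Matrigel. Such a sum is weighted to the brightest genes. Against basal culture, 5 of the 9 passed as higher and 2 as lower in aggregates (46.3% of all genes passed). In Matrigel 6 passed as higher and 0 as lower (28.4%). From aggregates to Matrigel 3 passed as higher and 2 as lower (26.7%). The background guide is the range of 25 genes of unrelated tissues that passed no culture or line test, of 30 listed and 27 measured, and it spanned 4.30 to 9.41 over all arrays. This is a loose bound, since it covers probe sets of every brightness. All 14 stellate cell and fibroblast markers, all 11 measured vascular smooth muscle and pericyte markers and all 14 cardiomyocyte and skeletal muscle markers lay within it on every array. The same held for the 10 endothelial and the 7 measured haematopoietic markers, whereas 3 of 6 mesothelial markers (Msln, Podxl and Krt19) exceeded it.

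The 9 genes fell into 2 patterns and 1 gene without a detected change. Tnnt2, Tpm1, Tpm2, Cnn2, Cnn3 and Actn1 were highest in basal cells, lowest in aggregates and in between in Matrigel. Acta2 and Tagln sat at one low level in basal cells and aggregates and were high in Matrigel only in line 9A1. Cnn1 stayed near one low level on every array.

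**Figure D1:**
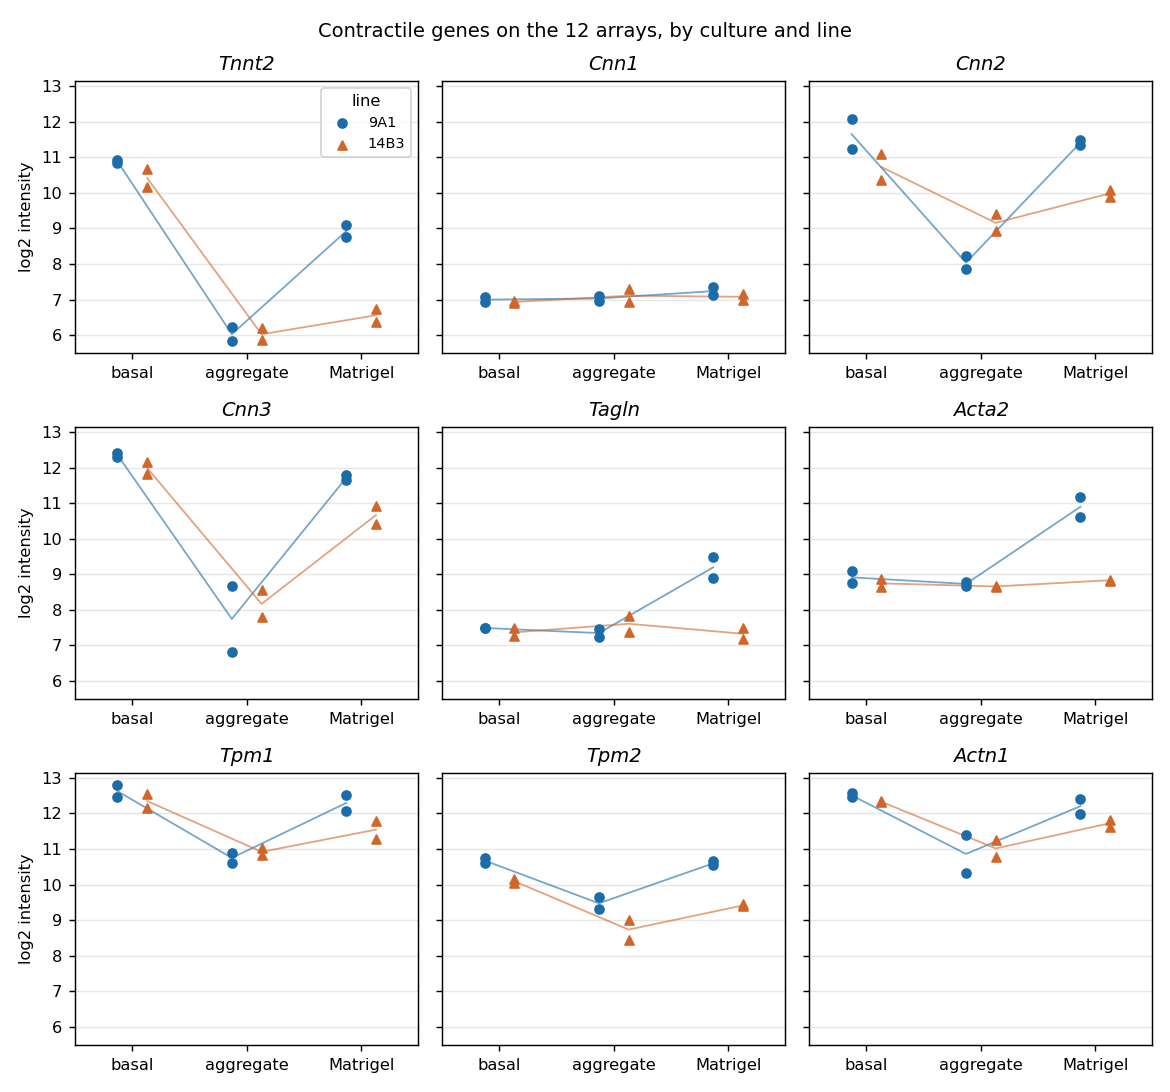
Level of each of the 9 genes (log2 intensity, vertical axis) in basal, aggregate and Matrigel culture, with 1 point per array, circles for line 9A1, triangles for line 14B3 and lines through the group means. In aggregates Tnnt2 lies between 5.84 and 6.22 on all 4 arrays, and in Matrigel Acta2 reaches 10.62 and 11.17 in line 9A1 but 8.82 and 8.84 in line 14B3.

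Tnnt2 encodes cardiac troponin T, the subunit that ties the troponin complex to tropomyosin in heart muscle (chromosome 1, 135836315 to 135852268, GRCm38.p6). In basal culture its levels were 10.92 and 10.85 in 9A1 and 10.68 and 10.16 in 14B3. In aggregates they were 6.22 and 5.84 in 9A1 and 5.86 and 6.19 in 14B3. In Matrigel they were 8.76 and 9.09 in 9A1 but 6.37 and 6.75 in 14B3. The 4 basal arrays were thus above all others, the 4 aggregate arrays were alike in both lines, and the Matrigel arrays split by line. All 4 aggregate arrays and all 4 Matrigel arrays lay within the background guide. Averaged over the lines, the level was 4.63 ± 0.15 (SE, 4 arrays against 4) lower in aggregates than in basal culture, a 24.7-fold difference, and 2.91 lower in Matrigel. Since the aggregate level, and the Matrigel level in 14B3, may be background, these differences may be understated. The same holds for the Cnn2, Cnn3 and Tpm2 aggregate levels below, except Tpm2 in replicate 1 of the 9A1 aggregates, which exceeded the guide at 9.64. The second Tnnt2 probe set showed a difference of -5.76 between aggregates and basal culture. Of 39 other measured genes from a list of cardiac and striated muscle genes, only Gata4, a transcription factor also of liver, exceeded the background guide on any array. Ankrd1, a muscle ankyrin protein gene that is not in that list, reached 11.69 in basal 9A1.

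Tropomyosins Tpm1 and Tpm2 form the rods that run along actin filaments, in muscle and, through other splice forms, in the stress fibres of most cells. Tpm1 (chromosome 9, 67022590 to 67049672) was at 12.80 and 12.45 in basal 9A1 and 12.54 and 12.15 in basal 14B3. In aggregates it was at 10.90 and 10.60 in 9A1 and 10.82 and 11.02 in 14B3. In Matrigel it was at 12.51 and 12.08 in 9A1 and 11.79 and 11.29 in 14B3. Basal and aggregate arrays did not overlap, nor did Matrigel and aggregate arrays. Tpm1 fell by 1.65 ± 0.16 (SE) in aggregates, a 3.15-fold change with a limma adjusted p of 3.29e-06, and was 1.09 higher in Matrigel than in aggregates (limma adjusted p = 0.000389).

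Tpm2 (chromosome 4, 43513726 to 43523583) was at 10.74 and 10.61 in basal 9A1 and 10.15 and 10.04 in basal 14B3. Its aggregate levels were 9.64 and 9.30 in 9A1 and 8.45 and 9.01 in 14B3, and its Matrigel levels 10.54 and 10.66 in 9A1 and 9.38 and 9.44 in 14B3. The 9A1 arrays were above the 14B3 arrays within each culture. Tpm2 fell by 1.28 ± 0.13 (SE) in aggregates, a 2.43-fold change (limma adjusted p = 5.57e-06). Both tropomyosins also have probe sets that do not move: the third of 3 for Tpm1 stayed between 7.07 and 7.40, and the third of 4 for Tpm2 between 7.28 and 7.82, over all 12 arrays. Which splice forms these probe sets read was not analysed here.

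The calponins bind actin and restrain myosin in smooth muscle. Cnn1 is the smooth muscle form, while Cnn2 and Cnn3 are made in many other cells. Cnn1 (chromosome 9, 22099221 to 22109221) ran from 6.91 to 7.36 over the 12 arrays, within the background guide, and passed no test. Its difference of 0.11 between aggregates and basal culture had a limma adjusted p of 0.467. Replicate 2 was above replicate 1 in all 6 groups, by 0.05 to 0.38.

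Cnn2 (chromosome 10, 79988600 to 79995400) was at 12.08 and 11.23 in basal 9A1 and 11.10 and 10.36 in basal 14B3. Its aggregate levels were 8.21 and 7.86 in 9A1 and 8.92 and 9.40 in 14B3. In Matrigel it was at 11.48 and 11.35 in 9A1 and 10.08 and 9.90 in 14B3. Line 9A1 was above 14B3 in basal culture and in Matrigel and below it in aggregates, without overlap in each case. Cnn2 fell by 2.59 ± 0.21 (SE) in aggregates, a 6.04-fold change (limma adjusted p = 7.27e-07). It was 4.29-fold higher in Matrigel than in aggregates (limma adjusted p = 2.8e-05).

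Cnn3 (chromosome 3, 121426541 to 121458205) was at 12.42 and 12.30 in basal 9A1 and 12.14 and 11.83 in basal 14B3. Aggregates gave 8.67 and 6.81 in 9A1 and 8.54 and 7.79 in 14B3, and Matrigel cultures 11.78 and 11.64 in 9A1 and 10.92 and 10.41 in 14B3. The cultures did not overlap, in the order basal, Matrigel, aggregate. The difference between aggregates and basal culture was -4.22 (SE 0.32), or 18.6-fold, and the Matrigel level 3.23 above the aggregate level. All 6 Cnn3 probe sets showed this, with differences of -4.60 to -3.05 in aggregates. Replicate 1 was above replicate 2 in all 6 groups, most in 9A1 aggregates, where the replicates lay 1.87 apart.

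Actn1, the non-muscle alpha-actinin of stress fibres and focal adhesions (chromosome 12, 80167542 to 80260420), was at 12.56 and 12.46 in basal 9A1 and 12.32 and 12.34 in basal 14B3. In aggregates it was at 11.39 and 10.33 in 9A1 and 11.25 and 10.78 in 14B3, and in Matrigel at 12.42 and 11.99 in 9A1 and 11.83 and 11.63 in 14B3. The aggregate arrays were below all others, with replicate 2 the lower in both lines. Actn1 fell by 1.48 ± 0.20 (SE) in aggregates, a 2.79-fold change (limma adjusted p = 6.46e-05), and its other probe sets differed by -1.47 and -1.23. Its difference of -0.45 between Matrigel and basal culture did not pass (limma adjusted p = 0.125), but passed with the replicate number as a block (limma adjusted p = 0.0332).

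Acta2, the actin of smooth muscle and of activated stellate cells (chromosome 19, 34240336 to 34255585), was at 9.08 and 8.74 in basal 9A1 and 8.63 and 8.86 in basal 14B3. In aggregates it was at 8.68 and 8.78 in 9A1 and 8.64 and 8.67 in 14B3. In Matrigel it was at 11.17 and 10.62 in 9A1 and 8.82 and 8.84 in 14B3. The 9A1 Matrigel arrays stood above the other 10, which all lay within the background guide. In line 9A1 Acta2 rose by 1.98 ± 0.18 (SE, 2 arrays against 2) from basal culture to Matrigel, a 3.96-fold change (limma adjusted p = 2.08e-05). In 14B3 the same difference was 0.09 (limma adjusted p = 0.856). The probe set that carries this is of a type that can bind several transcripts, and the only other Acta2 probe set stayed between 5.30 and 6.18 and passed no test. The Acta2 pattern therefore rests on 1 probe set.

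Tagln, an actin-binding protein abundant in smooth muscle (chromosome 9, 45929628 to 45936058), was at 7.48 and 7.50 in basal 9A1 and 7.25 and 7.48 in basal 14B3. In aggregates it was at 7.22 and 7.47 in 9A1 and 7.39 and 7.83 in 14B3. In Matrigel it was at 9.49 and 8.90 in 9A1 and 7.17 and 7.49 in 14B3. As with Acta2, the 9A1 Matrigel arrays stood above the other 10, and only replicate 1 exceeded the background guide. Tagln rose by 1.71 ± 0.22 (SE) from basal culture to Matrigel in 9A1, a 3.26-fold change (limma adjusted p = 0.000215), against -0.04 in 14B3 (limma adjusted p = 0.949). It has a single probe set on the array. Neither Acta2 nor Tagln passed the test between aggregates and basal culture, with differences of -0.14 (limma adjusted p = 0.422) and 0.05 (limma adjusted p = 0.812).

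Over the 9 genes, 6 fell and none rose in aggregates against basal culture, where 46.3% of all 12393 genes passed and 23.4% passed as lower. The same 6 fell within line 9A1, where 19.5% of all genes passed as lower, and within 14B3, where 17.5% did. The median difference of the 9 genes was -1.48, against 0.10 for all genes. In Matrigel against basal culture 4 fell (Tnnt2, Cnn3, Tpm1 and Tpm2) and 2 rose (Acta2 and Tagln), with 28.4% of all genes passing, 14.3% as lower and 14.1% as higher, and the medians were -0.45 and -0.04. In Matrigel against aggregates 8 rose, all but Cnn1, with 26.7% of all genes passing and 13.9% passing as higher, and the medians were 1.09 and -0.10. These comparisons share arrays pairwise, so they are not independent of each other. The Matrigel and basal count is the least firm: Cnn3, Tpm1 and Tpm2 each lost their call when 1 array was left out, and the count was 3 without replicate 1 of basal 9A1, replicate 1 of basal 14B3, replicate 2 of 9A1 in Matrigel or replicate 2 of 14B3 in Matrigel.

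**Figure D2:**
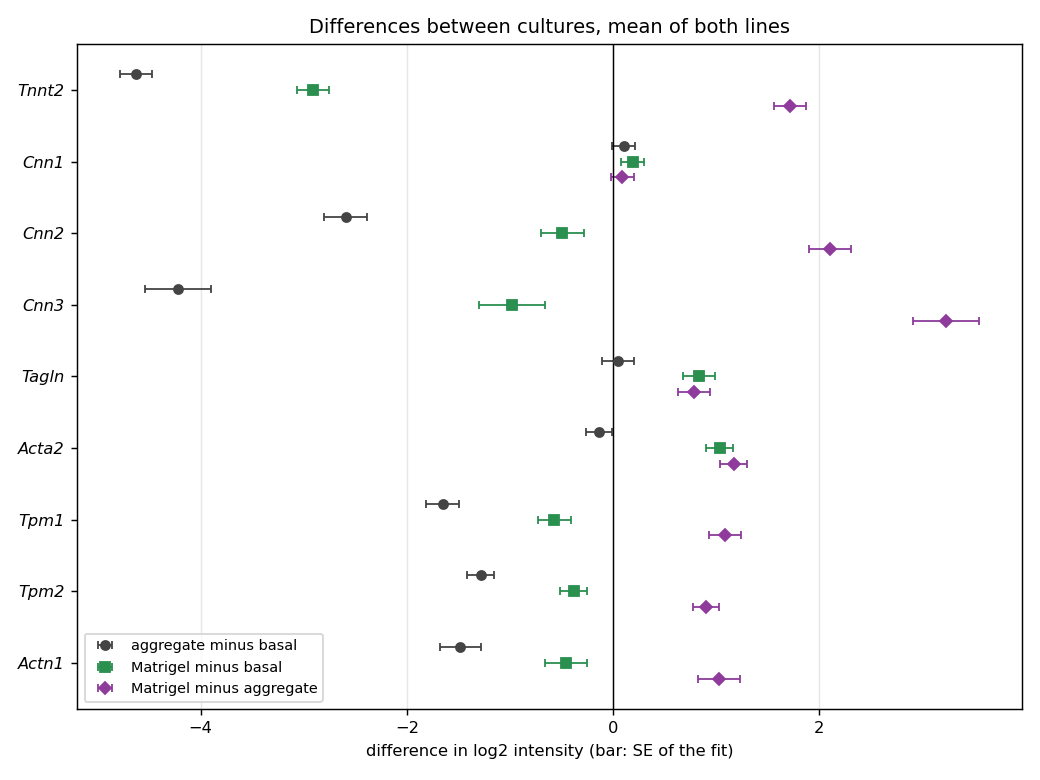
Difference in log2 intensity between cultures, averaged over both lines, for each of the 9 genes (horizontal axis; bars are the SE of the fit over 12 arrays), with aggregate minus basal as circles, Matrigel minus basal as squares and Matrigel minus aggregate as diamonds. The aggregate difference is -4.63 for Tnnt2 and -4.22 for Cnn3, and Matrigel lies above basal culture for Acta2 (1.04) and Tagln (0.83).

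**Figure D3:**
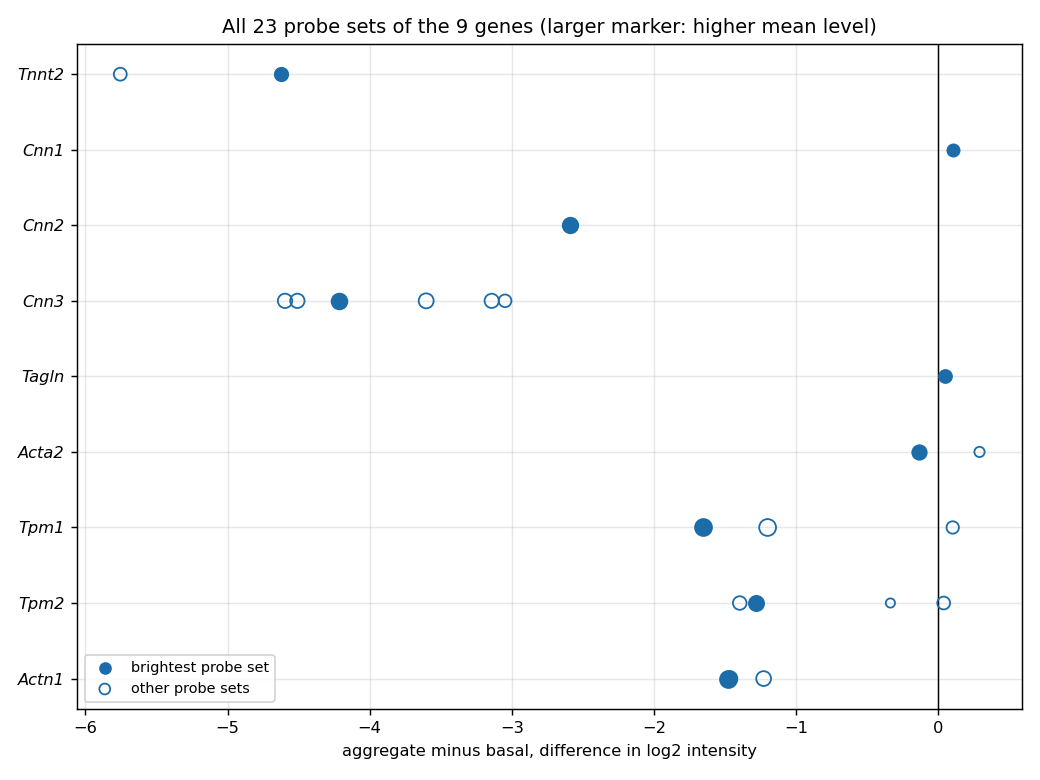
Aggregate minus basal difference in log2 intensity (horizontal axis) of all 23 probe sets of the 9 genes, filled for the probe set used per gene and open for the other 14, with marker size growing with mean level. The Cnn3 probe sets span -4.60 to -3.05, while the dimmest Tpm1 probe set lies at 0.10 and the third of Tpm2 at 0.04; an Actn1 probe set at -1.47 is hidden under the filled point.

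For the 6 genes of the first pattern, the Matrigel group mean stood closer to the basal mean in 9A1 than in 14B3. With the aggregate mean of a line set to 0% and its basal mean to 100%, Tnnt2 in Matrigel stood at 59.6% in 9A1 and 12.2% in 14B3. The corresponding positions were 93.3% and 52.9% for Cnn2, 93.4% and 50% for Tpm2, 86% and 65.4% for Cnn3, 82.3% and 43.7% for Tpm1, and 81.4% and 54.2% for Actn1. These positions are descriptions of group means of 2 arrays each, and 1 of the 14B3 Matrigel arrays is labelled as 5 days. How many of all genes show the same order was not counted. Of these 6 genes, Tnnt2 alone passed the test of a line difference in the change from basal culture to Matrigel. Tnnt2 and Cnn2 alone passed that for the step from aggregates to Matrigel (both tests are given below). In the step from aggregates to Matrigel, 8 of the 9 genes passed as higher in 9A1, where 9.37% of all genes did. In 14B3, 2 passed as higher (Cnn3 and Tpm2), where 7.15% of all genes did. Tnnt2 (0.53), Cnn2 (0.83), Tpm1 (0.62), Actn1 (0.71) and Acta2 (0.175) were also higher in 14B3 but did not pass. Tagln (-0.28) and Cnn1 (-0.03) were lower and did not pass. These counts of calls are not a test of a difference between the lines. From basal culture to Matrigel, 3 of the 9 passed in 9A1 (17.8% of all genes), with Tnnt2 lower and Acta2 and Tagln higher, and 3 passed in 14B3 (16.5%), with Tnnt2, Tpm1 and Tpm2 lower.

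The lines were then compared directly. Averaged over the cultures, 4 of the 9 genes were lower in 14B3 than in 9A1 and none higher, while 6.01% of all genes passed and 3.45% passed as lower: Tnnt2 (-0.94 ± 0.12 SE, limma adjusted p = 0.000737), Tpm2 (-0.83 ± 0.11, limma adjusted p = 0.000578), Acta2 (-0.77 ± 0.11, limma adjusted p = 0.00104) and Tagln (-0.58 ± 0.12, limma adjusted p = 0.0175). The Tagln call was lost without replicate 1 of basal 14B3 (limma adjusted p = 0.057) or replicate 1 of 14B3 in Matrigel (limma adjusted p = 0.0501). The comparison of the lines within Matrigel was added after the data were seen, and its p-values do not allow for that. Split by culture, no member passed in basal culture (1.9% of all genes) or in aggregates (1.53%), and 5 were lower in 14B3 in Matrigel (3.77%, and 2.41% as lower). Those 5 were Tnnt2 (-2.36, limma adjusted p = 7.34e-05), Acta2 (-2.06, 6.61e-05), Tagln (-1.87, 0.000469), Cnn2 (-1.42, 0.0179) and Tpm2 (-1.18, 0.00332). Cnn2 lost this call when any 1 of the 4 Matrigel arrays was left out. With the replicate number as a block, Tpm1 passed as well (-0.75, limma adjusted p = 0.0155).

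**Figure D4:**
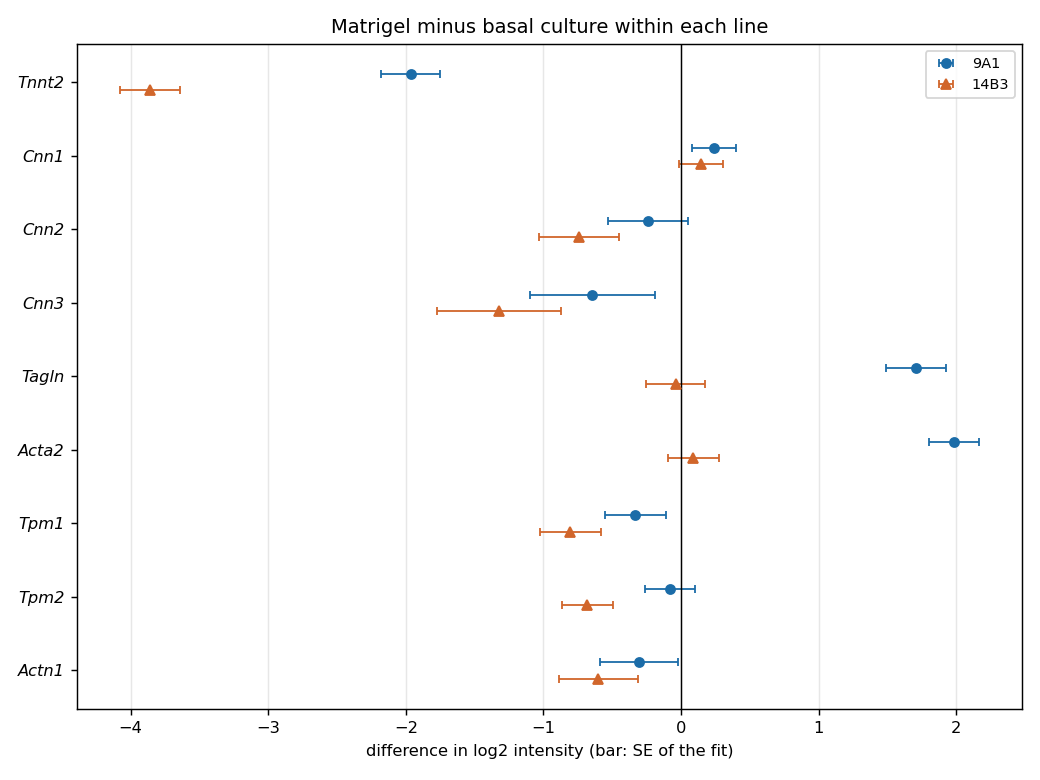
Matrigel minus basal difference in log2 intensity (horizontal axis) of each of the 9 genes within each line, with circles for 9A1 and triangles for 14B3 (bars are the SE of the fit, 2 arrays against 2). Acta2 is at 1.98 in line 9A1 and 0.09 in line 14B3, and Tnnt2 is at -1.96 and -3.86.

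The difference between the lines in their response to Matrigel was itself tested. For 3 of the 9 genes, Acta2, Tnnt2 and Tagln, the change from basal culture to Matrigel was lower in 14B3 than in 9A1, while 0.686% of all genes passed this test and 0.347% passed as lower. The difference in response was -1.90 ± 0.26 (SE) for Acta2 (limma adjusted p = 0.00656), -1.90 ± 0.31 for Tnnt2 (limma adjusted p = 0.0147) and -1.75 ± 0.30 for Tagln (limma adjusted p = 0.0229). For Tpm2, which was lower in 14B3 in every culture, it was -0.60 and did not pass (limma adjusted p = 0.67). The Acta2 call held when any 1 array was left out, with limma adjusted p at most 0.034. The Tnnt2 and Tagln calls did not. Both were lost without replicate 1 of basal 9A1 (limma adjusted p = 0.0675 and 0.102), replicate 2 of basal 9A1 (0.0542 and 0.0785), replicate 1 of basal 14B3 (0.064 and 0.0602) or replicate 1 of 14B3 in Matrigel (0.0617 and 0.0923), which left 1 gene in each case. Tnnt2 alone was lost without replicate 2 of 9A1 in Matrigel (0.0605), and Tagln alone without replicate 2 of basal 14B3 (0.113) or replicate 1 of 9A1 in Matrigel (0.0689).

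The array labelled as 5 days, replicate 1 of 14B3 in Matrigel, bears on these values. Without it the difference in response was -1.89 for Acta2 (limma adjusted p = 0.026), -1.71 for Tnnt2 and -1.59 for Tagln, so the sizes moved little. In that comparison the 14B3 mean rests on 1 array, whose spread is taken to be that of the other groups.

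Of the 14 stellate cell and fibroblast markers, 2 rose from basal culture to Matrigel, Col3a1 and Col1a1, with a list median of -0.04 against -0.04 for all genes, and none passed the test of a difference in Matrigel response. The summed linear intensity of the list was 2241 to 2469 in 9A1 Matrigel and 1681 to 1994 in 14B3 Matrigel, against 1794 to 2017 in basal culture and 1930 to 2384 in aggregates. Within Matrigel, Col3a1 had a mean level of 7.25 in 9A1 and 5.26 in 14B3 (limma adjusted p = 0.0208), and Col1a1 8.82 and 7.53 (limma adjusted p = 0.0155). In 9A1 Matrigel, replicates 1 and 2 lay apart, at 8.22 and 6.28 for Col3a1 and 9.35 and 8.29 for Col1a1. Both genes encode fibrillar collagens. Their differences in response, -2.02 and -1.24, did not pass (limma adjusted p = 0.239 and 0.238). Outside the list, the collagen gene Col5a1 did pass that test (-1.71, limma adjusted p = 0.0224). It is described below and was picked for its likeness to Tagln on these same arrays, so its pass is not independent of Tagln. Medag and Ptpn13, picked in the same way, did not pass (limma adjusted p = 0.167 and 0.439). No marker of the list exceeded the background guide, including Pdgfrb, Des and Lrat. The part of these markers in the Acta2 and Tagln results was not tested.

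In the response to aggregation, the lines did not differ by the limma test for any of the 9 genes, where 0.468% of all genes passed. At an unadjusted p under 0.05, limma called 1 of the 9, Cnn2, and 6.63% of all genes. Cnn2 fell by 3.62 in 9A1 and by 1.57 in 14B3, a difference of 2.05 ± 0.41 (SE) with a limma adjusted p of 0.0639. With the replicate number as a block shared by the lines, the adjusted p was 0.0224 in limma, and with a block within each line it was 0.0272. The call was also made without replicate 2 of basal 9A1 (limma adjusted p = 0.0239) and without replicate 1 of basal 14B3 (0.0394). A test of the lines in the step from aggregates to Matrigel was added after the data were seen, and its p-values do not allow for that. In that step 4 of the 9 genes responded less in 14B3, where 0.42% of all genes passed and 0.226% passed as lower: Tnnt2 (-2.36, limma adjusted p = 0.00834), Cnn2 (-2.54, 0.0261), Tagln (-2.13, 0.0121) and Acta2 (-1.99, 0.00834). Without replicate 2 of the 14B3 aggregates 2 were called, with Cnn2 at 0.128 and Tagln at 0.065. Cnn2 was also lost without replicate 2 of the 9A1 aggregates (0.104), without any 1 of the 4 Matrigel arrays (0.0588 to 0.114) and with array weights (0.122).

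The promoters of the 9 genes were searched for both elements best known from muscle genes: the CArG box, which SRF binds, and the MCAT element (CATTCC, or GGAATG on the opposite strand), which TEAD factors bind. RefSeq windows of 300 bases, 250 before to 50 after the start, were matched for 8 of the 9 genes (9 windows, GRCm38.p6), with none for Tagln. Only exact matches to the CArG consensus were counted (CC, then 6 bases that are each A or T, then GG). Sites that differ from it by a base, as CArG elements of muscle genes such as Acta2 can, were not searched for. An exact match was found in 1 of the 8 genes, Cnn2, against 1.81% of all 27025 genes with a window (1.63% of all 32851 windows). MCAT elements were found in 3 of the 8 genes, Tnnt2, Tpm1 and Acta2, against 16.6% of all genes with a window (14.7% of all windows). The 4 windows with a match are shown, each 5′ to 3′ on the gene's strand with the element in capitals. The element begins 27 bases before the start in Tnnt2 (chr1:135836084-135836383, plus strand), 56 before it in Cnn2 (chr10:79988350-79988649, plus strand), 56 before it in Tpm1 (chr9:67049164-67049463, minus strand) and 146 before it in Acta2 (chr19:34255324-34255623, minus strand). In Tpm1 and Acta2 it lies on the opposite strand.
Tnnt2: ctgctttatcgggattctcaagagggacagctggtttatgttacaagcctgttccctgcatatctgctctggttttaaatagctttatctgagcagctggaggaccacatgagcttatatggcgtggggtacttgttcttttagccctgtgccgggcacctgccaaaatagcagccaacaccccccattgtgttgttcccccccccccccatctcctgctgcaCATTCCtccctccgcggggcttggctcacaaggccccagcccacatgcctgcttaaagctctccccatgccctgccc
Cnn2: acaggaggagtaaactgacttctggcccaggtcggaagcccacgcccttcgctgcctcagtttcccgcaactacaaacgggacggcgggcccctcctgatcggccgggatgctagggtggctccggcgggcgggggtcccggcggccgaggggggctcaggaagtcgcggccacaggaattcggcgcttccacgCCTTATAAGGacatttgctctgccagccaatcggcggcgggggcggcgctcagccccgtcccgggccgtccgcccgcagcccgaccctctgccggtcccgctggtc
Tpm1: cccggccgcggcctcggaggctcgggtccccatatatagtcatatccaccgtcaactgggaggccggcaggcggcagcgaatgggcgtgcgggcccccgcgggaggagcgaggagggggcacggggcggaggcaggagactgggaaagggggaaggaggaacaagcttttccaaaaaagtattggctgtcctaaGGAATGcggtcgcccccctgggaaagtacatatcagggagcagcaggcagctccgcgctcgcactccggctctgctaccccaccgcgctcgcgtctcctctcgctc
Acta2: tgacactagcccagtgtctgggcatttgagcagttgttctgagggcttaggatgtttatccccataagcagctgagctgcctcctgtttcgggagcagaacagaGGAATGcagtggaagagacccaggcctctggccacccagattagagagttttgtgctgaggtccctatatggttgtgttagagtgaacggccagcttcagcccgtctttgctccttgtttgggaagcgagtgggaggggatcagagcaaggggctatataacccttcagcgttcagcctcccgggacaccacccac
The second Tnnt2 window and the windows of Cnn1, Cnn3, Tpm2 and Actn1 hold neither element in these letters. A match of letters is a description of the window and does not show binding.

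Apart from the 9 genes, 22 of 24 listed smooth muscle contractile genes were measured, and 15 of them, including Myh11, Actg2, Des and Lmod1, stayed within the background guide on every array. That guide reaches above the median gene of each array, and genes within it can still change: Smtn, a smooth muscle cytoskeletal protein, fell by 1.11 in aggregates. In aggregates 5 of the 22 fell and 1 rose (27.3% of the list, against 46.3% of all genes), and the median of the list was 0.11, against 0.10 for all genes. Cald1, an actin- and myosin-binding regulator, fell by 2.02, and the LIM-domain proteins Csrp2 and Csrp1 fell by 1.71 and 1.65. Mylk, the kinase that switches on smooth muscle myosin, rose by 1.49. From aggregates to Matrigel 7 rose, led by Fhl1 (1.86), Csrp1 and Csrp2, and 3 fell, among them Mylk. Of 39 measured cardiac and striated muscle genes (40 listed), 38 stayed within the background guide. In aggregates 5 of the 39 rose, among them Gata4 by 1.04, and 1 fell, Tnnc1 by 0.29, which is 15.4% of the list.

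Of 32 measured genes of the non-muscle actin cytoskeleton (34 listed), 17 fell and 6 rose in aggregates (71.9% of the list, against 46.3% of all genes), with a median of -0.44 against 0.10 for all genes. Anln, which links actin and myosin in the cleavage furrow, fell by 4.12, the filamin Flna, an actin crosslinker, by 2.55, and the formin Diaph3, an actin nucleator, by 1.96. The non-muscle myosin Myh14 rose by 2.40 and Lima1 by 0.97, so the list moved in both directions. The cytoplasmic actin Actb differed by -0.03 and did not pass (limma adjusted p = 0.791). From aggregates to Matrigel 16 rose and 1 fell, with Anln at 2.18, Flna at 1.76 and Csrp1 at 1.73.

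**Figure D5:**
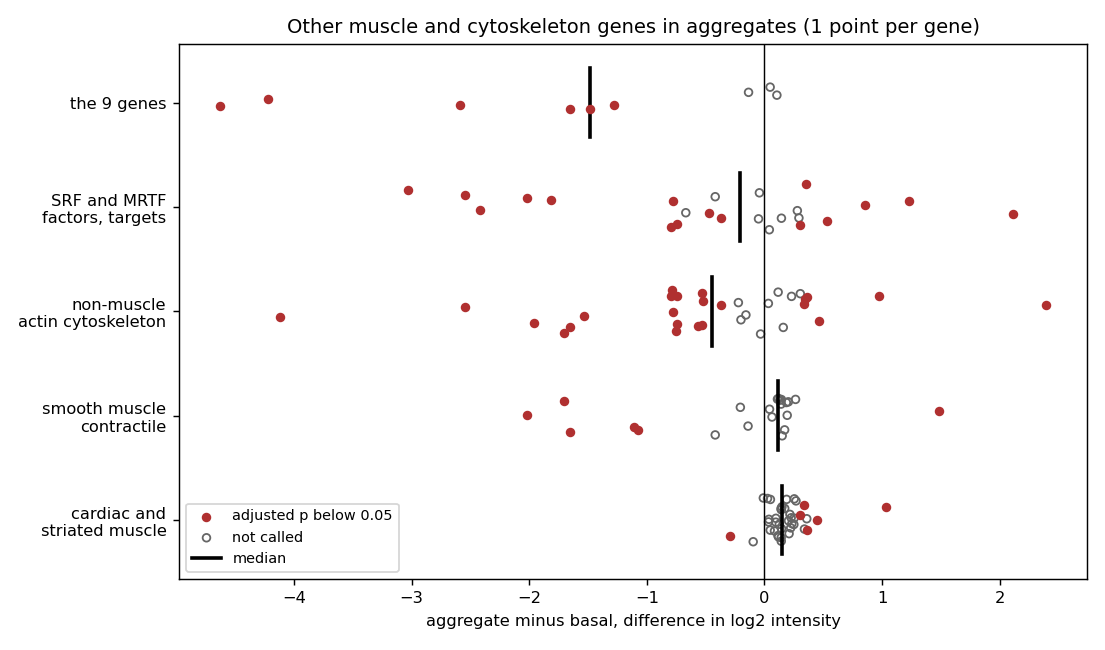
Aggregate minus basal difference in log2 intensity (horizontal axis) of the 9 genes and of 4 lists of related genes, with 1 point per gene, filled where the limma adjusted p is below 0.05 and open otherwise; vertical bars are medians. The median is -1.48 for the 9 genes, -0.21 for SRF and MRTF factors and targets, -0.44 for the non-muscle cytoskeleton, 0.11 for smooth muscle and 0.15 for cardiac and striated muscle genes.

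SRF and MRTF factors and their targets went both ways, with 10 of 24 measured genes (25 listed) down and 6 up in aggregates (66.7% of the list, against 46.3% of all genes). Flna stands in this list too. Ankrd1, a stress-induced muscle ankyrin protein, fell by 3.03, and the matricellular protein gene Ccn2 by 2.42. The immediate early genes Fos, Egr1 and Fosb rose by 2.12, 1.23 and 0.86. Srf itself differed by 0.04 and did not pass (limma adjusted p = 0.784), nor did the cofactors Mrtfa (0.29, limma adjusted p = 0.305) and Mrtfb (0.28, limma adjusted p = 0.147). The muscle cofactor Myocd rose by 0.30 (limma adjusted p = 0.0199) at levels within the background guide. From aggregates to Matrigel 13 rose, led by Ankrd1 (2.52), Ccn2 (2.33) and Fhl1 (1.86), and 3 fell, with Fos at -1.34, Egr1 at -0.83 and Myocd at -0.39.

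The genes most like Tnnt2, Cnn3 and Tagln were ranked over the 12 arrays by the root mean square difference of levels, each centred on its own mean. This likeness is a description, and all its points share the same arrays. For Tnnt2 the nearest were Cd109 (0.591), Fbln2 (0.604) and Fgf13 (0.638), against a median of 2.08 over all genes. For Cnn3 they were Anxa3 (0.427), Mki67 (0.491) and Anxa1 (0.498), against a median of 1.95. For Tagln they were the collagen gene Col5a1 (0.158), Medag (0.242) and Ptpn13 (0.261), against a median of 0.756. Col5a1 was at 10.45 and 9.72 in 9A1 Matrigel and at 8.30 and 8.44 in 14B3 Matrigel, and ran from 8.13 to 8.49 on the other 8 arrays.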

How the data were processed

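The authors deposited 1 table of signal intensity per probe set for 12 arrays, made with R 2.3.1 and RMA per the submitters' processing notes. The deposited intensities span 14.4 to 27318 and so are on a linear scale; they were converted to log2, the scale RMA itself works on. Of 22690 probe sets, 20380 carried 1 gene symbol in the platform annotation, which can be old, 691 several and 1555 none, and 64 were controls. Only those with 1 symbol were used. For 20351 of them the gene ID matched the RefSeq gene table of mouse. The brightest probe set over the 12 arrays stood for each of 12393 genes (4956 had more than 1), and no dim gene was removed.

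limma 3.58.1 in R 4.3.3 (lmFit and eBayes) was fitted to all genes with 1 mean for each of 6 groups. The fit had 6 residual degrees of freedom, and the residual SD of the median gene was 0.17. Tests were two-sided, with Benjamini-Hochberg adjustment over all genes and a threshold of 0.05. Figures were drawn in Python 3.11.15. Precision is limited by the number of arrays. They are labelled biological duplicates, and whether each came from a separate culture is not given in the sources used here, so the p-values reflect only how far these samples spread, and that spread may be technical. In simulated data for aggregates against basal culture (12393 genes), 47.6% of genes changed by 0.5 on the log2 scale, 93.2% changed by 1 and 99.6% changed by 2 were called, and 4.97% of calls were false. That simulation changed only 200 genes per draw, whereas 46.3% of all genes passed in the data. It also drew the arrays as independent, without the replicate correlation described below. Its rates may therefore not hold for these data.

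Deviations of same-numbered arrays from their group means correlated in 15 of 15 group pairs (r = 0.101 to 0.644), so replicate numbers may pair the arrays. The main fit, which gave the p-values above unless a block is named, did not use this pairing. Fits with the number as a block were run as an alternative. With a block shared by both lines, 41.5% of all genes passed in Matrigel against aggregates, and 26.7% in the main fit. Other alternatives changed the probe set rule, the scaling, the filter, the arrays and the fit. The members, gene lists and tests were chosen with earlier results of these data known. Genes outside the 9 were named by rule: up to 3 rises and 3 falls per list in aggregates against basal culture and in Matrigel against aggregates, called cell type markers, and the 3 genes most like Tnnt2, Cnn3 and Tagln. Actb, Srf, Mrtfa and Mrtfb, and genes named for lying within or above the background guide, were named outside that rule after their values were seen. One further gene list is not reported here. Line differences within Matrigel and in the step from aggregates to Matrigel were added after seeing the data.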

Additional observations from a re-analysis of the deposited data

Results flagged for a closer look

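In a check of 27 sets of 4 arrays (9 genes in 3 cultures) for an array far from the others, 1 was found: Tagln in basal culture, where replicate 1 of 14B3 was at 7.25 and the other 3 arrays lay between 7.48 and 7.50. Chance alone flags about 1 in 20 such sets.

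The response to Matrigel differed between the lines for 3 genes by the test of the difference in limma. The change from basal culture in 14B3 minus that in 9A1 was -1.90 for Tnnt2, -1.75 for Tagln and -1.90 for Acta2 on the log2 scale. Each line contributed 2 arrays per culture, and 1 of the 14B3 Matrigel arrays is labelled as 5 days rather than 10.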

How the results depend on the processing

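The 6 falls in aggregates and the 8 rises from aggregates to Matrigel kept their number when any 1 array was left out. In a fit of line 14B3 alone, however, 2 genes passed as higher from aggregates to Matrigel, Cnn3 and Actn1. Tpm2 was at an adjusted p of 0.0508 in limma in that fit. The count for Matrigel against basal culture, 6, was 2 when a change of at least 1 log2 unit was asked for, 3 in an additive fit of line and culture, 3 with line 9A1 alone, and 3 to 7 when 1 array was left out. The line difference, 4 genes, was 0 with a change of at least 1 log2 unit, 1 in the additive fit and 3 to 5 with 1 array left out. The response to aggregation, 0 genes, was 1 (Cnn2) with the replicate number as a block shared by the lines, 1 with a block within each line, 1 with an intensity trend in the variance prior, and 0 to 1 with 1 array left out. The response to Matrigel, 3 genes, was 1 to 3 with 1 array left out, the line difference within Matrigel, 5 genes, 4 to 6, and the response from aggregates to Matrigel, 4 genes, 2 to 5. Tagln reversed in line 14B3 alone, at -0.040 for Matrigel against basal culture and -0.28 against aggregates. The cause was not tested, except that a size limit makes fewer calls by construction. Among the 9 genes and 8 comparisons, the paired analysis changed a call only for Actn1 in Matrigel against basal culture, Cnn2 in the response to aggregation and Tpm1 between the lines in Matrigel. Of 1666 single-gene comparisons over all settings, 1573 kept direction and call, 74 lost the call, 17 gained it and 2 changed sign. Centring the arrays on their medians changed no member's call. Levels within the background guide may limit the folds of Tnnt2, Cnn2 and Cnn3 in aggregates, and those of Tnnt2 in Matrigel. For Tpm2 in aggregates the same applies except to replicate 1 of 9A1, which exceeded the guide at 9.64. With 2 arrays per group, small differences of Cnn1 could not be detected.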
